A study of Mus musculus with 3 samples.

Results

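The Nodal pathway genes described here were 8 genes chosen by name, the ligands Nodal and Gdf3, the coreceptors Tdgf1 and Cfc1, the transcription factor Foxh1 and the antagonists Lefty1, Lefty2 and Cer1. All probe sets annotated with one of these symbols alone were taken, which gave 13 probe sets among the 34945 that carried a single symbol, or 8 of 18193 genes. A probe set is a group of short probes on the array against the same transcript. They were read in endoderm, mesoderm and epiblast from ICR mouse embryos at E7.5, with 1 Affymetrix Mouse Genome 430 2.0 array for each layer. The labels give the layer and stage and name no genotype or treatment, and the strain is stated in the methods. The layers were parted by hand after a short digestion with trypsin and pancreatin, and the epiblast held both the neuroectoderm and the primitive streak. The sources used here do not state how many embryos went into an array.

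Nodal is a secreted ligand of the TGF-beta family that patterns the embryo during gastrulation. It binds activin receptors together with an EGF-CFC coreceptor, a small protein tethered to the cell surface, and the receptors then phosphorylate SMAD2 and SMAD3, which enter the nucleus with SMAD4 and meet DNA-binding partners such as FOXH1. Lefty proteins and Cerberus, the product of Cer1, block the signal outside the cell, and the Lefty genes are themselves known targets of the pathway. In the mouse embryo Nodal is known for its part in the anterior-posterior axis, in mesoderm and endoderm formation and in left-right asymmetry.

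With a single array per layer there was no replicate, so no p-value was possible and no difference has a replicate check. Intensities are on the linear scale of the deposited table. A gene was counted as differing between a pair of layers when its intensities were at least 2-fold apart and its brightest layer was above 80.6, called the floor here, which is the median over every value deposited. Counts, and the shares of all genes set beside them, use intensities as read, also where a layer of the pair was below the floor. In the folds given for named genes, values below the floor are taken as bounds. Genes with several probe sets gave a measure of spread, the pooled SD of their log2 differences, which was 0.40 in endoderm against epiblast, 0.27 in mesoderm against epiblast and 0.39 in endoderm against mesoderm. It does not stand for variation between embryos. Median intensities of the arrays lay between 79.9 and 82.2. Upper quartiles were less even, at 319 in endoderm, 276 in mesoderm and 269 in epiblast. Markers of the layers went with the labels, though the lists were chosen with earlier results of these data known. Against epiblast, 15 of 15 endoderm and visceral endoderm markers were higher in endoderm by 2-fold or more, beside 12.5% of all genes above the floor. In mesoderm 8 of 10 mesoderm markers were so, beside 3.44%. Of the epiblast markers 5 of 8 were lower by as much in endoderm and 8 of 8 in mesoderm, beside 4.01% and 3.25%. In endoderm against epiblast 2 mesoderm markers were also higher (Foxc2 and Twist1). There 3 were lower (Tbx6, Mesp1 and Snai2, the last below the floor in both layers). Markers of other tissues above the floor were also higher there, beside the same 12.5%, in 1 of 6 for extra-embryonic ectoderm (Rhox5). For decidua it was 1 of 2 (Igfbp1) and for erythroid cells 0 of 1. Rhox5 read 3726 in endoderm, 403 in mesoderm and 367 in epiblast. Igfbp1 read 331 in endoderm, 24.1 in mesoderm and 23.2 in epiblast. Carry-over of other tissue was not tested. In such bulk samples, fewer cells that express a gene and less RNA per cell cannot be told apart.

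The antagonists Cer1 and Lefty2 and the coreceptor Cfc1 differed most between the layers, and neither ligand passed the 2-fold limit. For Gdf3, with mesoderm and epiblast below the floor, this does not bound the size of the difference. Cer1 was highest in endoderm and Lefty2 in mesoderm, and Cfc1 was high in both of these layers and low in epiblast. Of the 8 genes 7 were above the floor in at least 1 layer, and Lefty1 was below it everywhere. In at least 1 pair of layers 4 members differed (Tdgf1, Cfc1, Lefty2 and Cer1), where 21.5% of genes did. In endoderm against epiblast 2 members (Cfc1 and Cer1) were higher and 1 (Lefty2) was lower, where 12.5% of the 12785 genes above the floor were higher and 4.01% lower. In mesoderm against epiblast 3 members (Cfc1, Lefty2 and Cer1) were higher and 0 lower, against 3.44% and 3.25% of genes. In endoderm against mesoderm 1 member (Cer1) was higher and 2 (Tdgf1 and Lefty2) were lower, against 11.4% and 3.86% of genes. Both comparisons with epiblast share the epiblast array, so a single low or high epiblast value enters both.

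**Figure D1:**
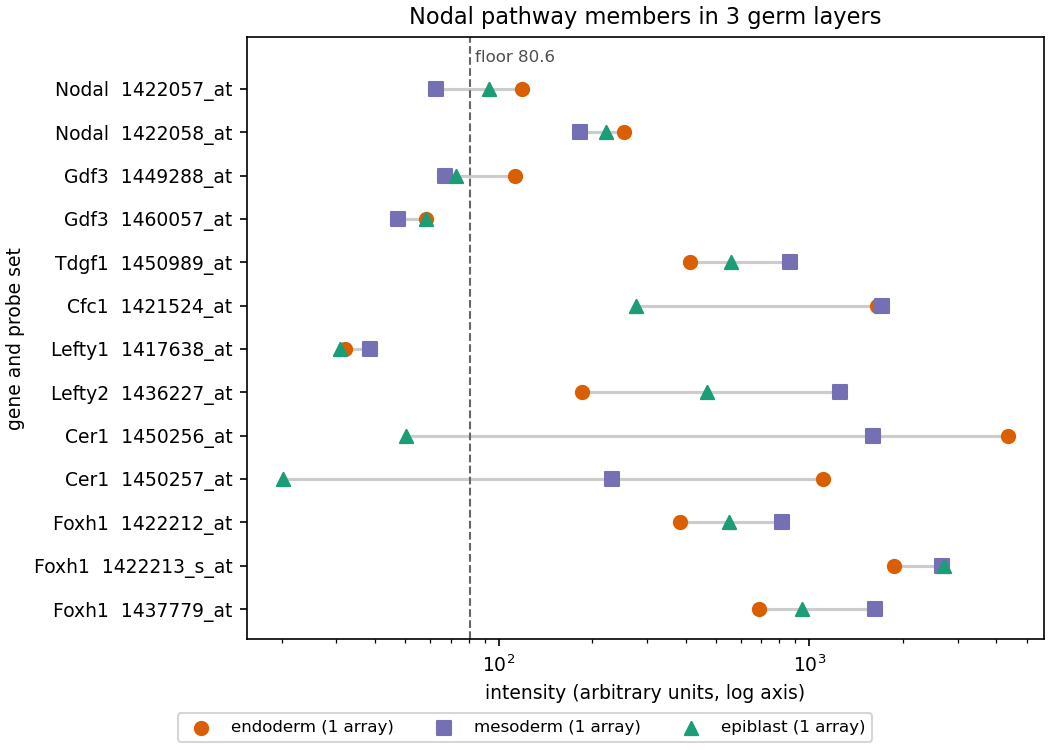
Intensity (log axis, arbitrary units) of the 13 probe sets of the 8 genes in endoderm, mesoderm and epiblast, 1 array each, with the floor of 80.6 as a dashed line. Both Cer1 probe sets run from below the floor in epiblast to 1106 and 4344 in endoderm, and the Lefty1 probe set lies below the floor in every layer.

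The ligands come first. Nodal had 2 probe sets, and the brighter one (1422058_at) read 252 in endoderm, 183 in mesoderm and 221 in epiblast. The dimmer one (1422057_at) read 119 in endoderm, 62.7 in mesoderm and 93.2 in epiblast. Both gave the same order, with endoderm highest and mesoderm lowest, but the steps were small. By the brighter probe set the log2 difference was 0.19 (endoderm against epiblast), -0.28 (mesoderm against epiblast) and 0.47 (endoderm against mesoderm). The step between endoderm and epiblast was smaller than the spread between probe sets and turned to -0.01 when the arrays were quantile normalized, so the order of these layers is not settled. In the dimmer probe set endoderm over mesoderm was at least 1.48-fold, with mesoderm below the floor.

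Gdf3 encodes a related ligand that works through the same receptors and coreceptors. It was dimmer still. Its probe set 1449288_at read 112 in endoderm, 67.1 in mesoderm and 72.5 in epiblast, so that only endoderm passed the floor, by at least 1.39-fold over each other layer. The other probe set (1460057_at) read 58.4 in endoderm, 47.4 in mesoderm and 58.1 in epiblast, below the floor throughout. At this signal, differences between mesoderm and epiblast were not detectable.

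The coreceptors differed from each other in pattern. Tdgf1, also known as Cripto, is the EGF-CFC protein of the epiblast and early mesoderm and is needed for Nodal signalling before gastrulation. Its single probe set (1450989_at) read 411 in endoderm, 865 in mesoderm and 559 in epiblast. Mesoderm was highest and endoderm lowest, with log2 differences of -0.44 (endoderm against epiblast), 0.63 (mesoderm against epiblast) and -1.07 (endoderm against mesoderm). The last, 2.10-fold, was the one Tdgf1 difference past the 2-fold limit, and it lay just inside it.

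Cfc1, or Cryptic, is the other EGF-CFC coreceptor of the mouse, best known for its part in left-right asymmetry. Its probe set (1421524_at) read 1653 in endoderm, 1711 in mesoderm and 277 in epiblast. Between endoderm and mesoderm the log2 difference was -0.05, under the spread between probe sets, and both stood above epiblast. Endoderm was 5.97-fold higher than epiblast (log2 2.58) and mesoderm was 6.18-fold higher (log2 2.63). Among the 12785 genes above the floor, ordered from the highest difference down, Cfc1 was at place 54 for mesoderm against epiblast and at place 257 for endoderm against epiblast. Of these genes 1.7% were at least 2-fold higher in endoderm and in mesoderm than in epiblast, a class that held Cfc1 and Cer1 among the members.

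RefSeq promoter sequence was matched for 4 of the 8 genes, namely Nodal, Tdgf1, Cfc1 and Cer1. The stretches of the coreceptors, whose patterns differ, and of Cer1, which shares the low epiblast value with Cfc1, are shown here, each as the 250 bases before the gene's start in RefSeq (build GRCm38.p6, 5′ to 3′ on the gene's strand). Capitals mark matches on either strand to 6 motifs that were searched: AATCCACA and AATACACA for FOXH1, CAGAC for SMAD proteins, TCACACC for T-box factors, GATAA for GATA factors and TAATTA for homeobox factors. Cfc1 lies at chr1:34535398-34535647 on the plus strand, Tdgf1 at chr9:110946159-110946408 on the minus strand and Cer1 at chr4:82885152-82885401 on the minus strand.
Cfc1: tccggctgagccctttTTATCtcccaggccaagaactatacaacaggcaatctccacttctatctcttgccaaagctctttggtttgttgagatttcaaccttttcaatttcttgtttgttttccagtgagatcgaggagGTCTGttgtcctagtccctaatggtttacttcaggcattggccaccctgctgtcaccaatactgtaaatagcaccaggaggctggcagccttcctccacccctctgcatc
Tdgf1: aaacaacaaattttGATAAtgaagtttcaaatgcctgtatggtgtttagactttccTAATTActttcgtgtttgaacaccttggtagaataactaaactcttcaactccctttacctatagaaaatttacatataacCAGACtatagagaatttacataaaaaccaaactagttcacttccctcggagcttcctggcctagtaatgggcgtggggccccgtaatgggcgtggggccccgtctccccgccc
Cer1: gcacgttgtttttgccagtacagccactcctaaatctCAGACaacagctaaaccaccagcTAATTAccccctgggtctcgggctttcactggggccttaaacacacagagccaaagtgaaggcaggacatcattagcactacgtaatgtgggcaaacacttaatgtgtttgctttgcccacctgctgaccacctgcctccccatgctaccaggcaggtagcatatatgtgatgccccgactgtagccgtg

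CAGAC occurred once before each of these genes, in Cfc1 as its reverse complement, and in 42.2% of the 32851 promoter stretches in the table. GATAA occurred once in Cfc1 (as the reverse complement) and once in Tdgf1, against 22.6% of all stretches. TAATTA occurred once in Tdgf1 and once in Cer1, against 4.84%. No match overlapped another. Neither FOXH1 motif (0.718% and 0.895% of all stretches) nor the T-box motif (3.33%) was found in these windows, and the Nodal window held none of the 6. A match is a stretch of letters and does not show that a protein binds there, and enhancers outside the windows were not searched.

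Foxh1, the forkhead factor that brings SMAD2 and SMAD3 complexes to Nodal target genes, was well above the floor in every layer. The probe set that stood for the gene (1422213_s_at) read 1868 in endoderm, 2669 in mesoderm and 2707 in epiblast. Probe set 1437779_at read 689 in endoderm, 1623 in mesoderm and 948 in epiblast. Probe set 1422212_at read 382 in endoderm, 817 in mesoderm and 550 in epiblast. All 3 placed endoderm lowest, and in endoderm against epiblast they lay close together, at log2 differences from -0.54 to -0.46.

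They parted over mesoderm. In mesoderm against epiblast the log2 difference was -0.02 for 1422213_s_at, 0.57 for 1422212_at and 0.78 for 1437779_at. In endoderm against mesoderm it was -0.51 for 1422213_s_at, against -1.10 for 1422212_at and -1.24 for 1437779_at, so that 2 of 3 probe sets passed the 2-fold limit (2.14-fold and 2.36-fold) and the brightest did not. By the mean of its probe sets Foxh1 had a log2 difference of 0.44 (mesoderm against epiblast) and -0.95 (endoderm against mesoderm). In the manufacturer's naming the suffix _s_at marks probes that match more than 1 transcript, and which transcripts these were was not tested.

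Among the antagonists, Cer1 and Lefty2 had the widest ranges of the members. Cer1 encodes Cerberus, a secreted protein that binds Nodal, and also BMP ligands, and is known from the anterior visceral endoderm and the definitive endoderm. Its brighter probe set (1450256_at) read 4344 in endoderm, 1606 in mesoderm and 50.4 in epiblast. The dimmer one (1450257_at) read 1106 in endoderm, 232 in mesoderm and 20.2 in epiblast. Both had the same order, endoderm over mesoderm over epiblast, and both were below the floor in epiblast, so the differences from epiblast are bounds.

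In endoderm Cer1 was at least 53.9-fold higher than in epiblast by the brighter probe set and at least 13.7-fold by the dimmer one. In mesoderm the bounds over epiblast were 19.9-fold by the brighter and 2.88-fold by the dimmer. Endoderm over mesoderm was measured on both sides, at 2.70-fold (log2 1.44) and 4.76-fold (log2 2.25), a gap of 0.82 between the probe sets on the log2 scale. In endoderm against mesoderm Cer1 was at place 892 of 12785 genes from the highest difference down, and no place is given against epiblast. Of all genes above the floor, 0.587% fell in the same class as Cer1, with endoderm 2-fold or more over mesoderm and mesoderm 2-fold or more over epiblast.

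The mesoderm level of Cer1 was set beside endoderm markers in the same sample. Of the 15 markers of endoderm and visceral endoderm, 7 were above the floor in mesoderm and the brightest read 143 there. Their mesoderm intensities were between 0.579% and 10.8% of those in endoderm. Summed over these markers, intensity came to 78483 in endoderm, against 1234 in mesoderm and 1845 in epiblast. Cer1 in mesoderm reached 37.0% of its endoderm intensity by the brighter probe set and 21.0% by the dimmer one. The 9 other genes of the anterior visceral endoderm list above the floor had mesoderm intensities of 1.46% to 91.8% of those in endoderm, with 5 of 9 above the share of the brighter Cer1 probe set. Of these 5, Sfrp5 had the highest share, with intensities near the floor in every layer (94.3 to 106), and Otx2 was brightest in epiblast. The others were Hhex, Lhx1 and Amot. The part of endoderm cells in the mesoderm sample was not tested. Shares and sums use intensities as read, also below the floor. The lowest shares, 0.579% (Apob) and 1.46% (Foxa2), come from genes below the floor in mesoderm and are not measured levels.

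Lefty2, a secreted inhibitor that blocks Nodal at its receptors and is known from nascent mesoderm, had a single probe set (1436227_at). It read 185 in endoderm, 1259 in mesoderm and 466 in epiblast, all above the floor. Mesoderm was 2.70-fold higher than epiblast (log2 1.43). Endoderm was 2.52-fold lower than epiblast (log2 -1.33) and 6.79-fold lower than mesoderm (log2 -2.76). Ordered from the lowest difference up, Lefty2 was at place 42 of 12785 genes in endoderm against mesoderm. For 1.49% of these genes mesoderm exceeded endoderm and epiblast by 2-fold or more, and Lefty2 was the one member among them.

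Lefty1, the close relative of Lefty2, is known from the anterior visceral endoderm and the midline. Its probe set (1417638_at) read 31.9 in endoderm, 38.4 in mesoderm and 30.9 in epiblast, below the floor on every array. A level of Lefty1 in any layer was therefore not detectable with this probe set, and no fold is given. Whether the Lefty2 probes also bind Lefty1 RNA was not tested.

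**Figure D2:**
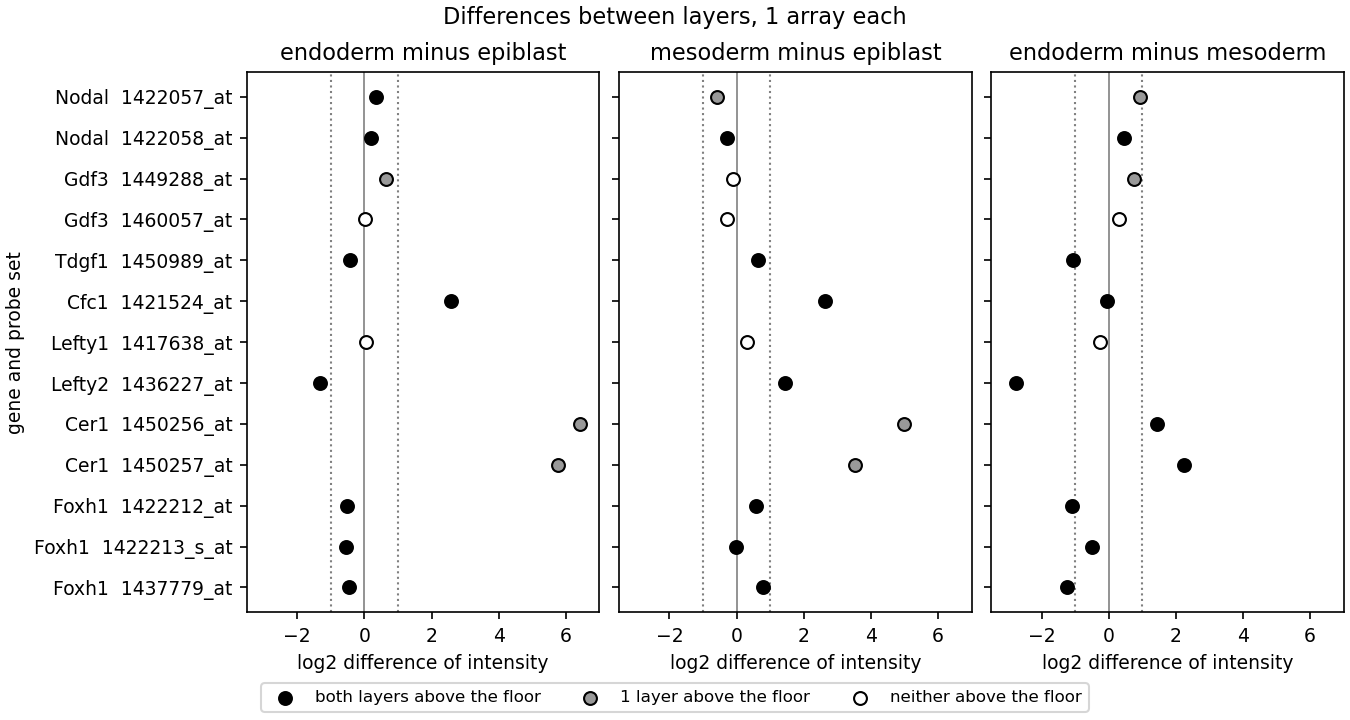
Log2 difference of intensity for each of the 13 probe sets and each pair of layers, from 1 array per layer, with dotted lines at the 2-fold limit. Black points have both layers above the floor of 80.6, grey points have 1 and open points have none. Cer1 and Cfc1 lie to the right in both comparisons with epiblast, and Lefty2 changes side between endoderm and mesoderm.

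The other genes of the pathway were counted in the same way. A list of 44 further genes (other ligands, convertases, receptors, SMAD proteins and their partners, negative regulators and positive modulators) had 42 with a named probe set and 38 above the floor. In endoderm against epiblast 2 of the 38 were at least 2-fold higher and 4 lower, together 15.8%, against 16.5% of all genes. In mesoderm against epiblast 3 were higher and 2 lower (13.2% against 6.69%). In endoderm against mesoderm 1 was higher and 4 lower (13.2% against 15.3%). Median log2 differences of the list were 0.06, -0.05 and 0.03 in these comparisons, beside 0.05, -0.02 and 0.07 for all genes.

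Among the convertases, proteases that cut proproteins such as pro-Nodal, Furin and Pcsk5 differed by 2-fold or more and Pcsk6 did not. Furin read 2132 in endoderm, 847 in mesoderm and 668 in epiblast, a 3.19-fold excess of endoderm over epiblast. Pcsk5 read 105 in endoderm, 652 in mesoderm and 87.9 in epiblast by its brightest probe set, which is 7.42-fold higher in mesoderm than in epiblast. Of the 5 Pcsk5 probe sets a dimmer one followed it, at 46.2 in endoderm, 235 in mesoderm and 45.2 in epiblast. Another passed the floor in mesoderm alone, at 92.8. The rest were below the floor in every layer, with mesoderm at 66.5 and 61.8, so they do not bear on the size of the difference. The brightest probe set has the suffix _s_at, and which transcripts it matches was not tested. Pcsk6 read 101 in endoderm, 110 in mesoderm and 135 in epiblast.

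No receptor or SMAD gene passed the 2-fold limit in any comparison. Acvr1b, the type I receptor for Nodal and activin, read 1299 in endoderm, 1196 in mesoderm and 1176 in epiblast. The type II receptor Acvr2a read 602 in endoderm, 616 in mesoderm and 361 in epiblast. Its relative Acvr2b read 841 in endoderm, 1351 in mesoderm and 1260 in epiblast. The other type I receptor, Acvr1c, passed the floor only in epiblast, at 90.8. Smad2 read 913 in endoderm, 654 in mesoderm and 552 in epiblast, Smad3 read 599, 909 and 572 in that order of layers, and Smad4 was the most even, at 2978, 3026 and 3143. Of the other ligands, Inhbb alone was above the floor, between 120 and 137.

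SMAD partners differed in at least 1 pair of layers in 3 of 11 genes above the floor, where 21.5% of all genes did. The homeobox factor Mixl1 read 77.8 in endoderm, 234 in mesoderm and 554 in epiblast. It was at least 6.87-fold lower in endoderm than in epiblast. Zic2 read 401 in endoderm, 961 in mesoderm and 1539 in epiblast. The corepressor gene Tgif2 read 1088 in endoderm, 1987 in mesoderm and 2258 in epiblast. Its relative Tgif1 stayed within 2-fold, at 1545 in endoderm, 1059 in mesoderm and 2042 in epiblast.

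Of 12 negative regulators above the floor, Fst, Smad7 and Bambi differed in at least 1 pair of layers, beside the same 21.5% of all genes. Fst, whose product follistatin traps activin, read 300.0 in endoderm, 1189 in mesoderm and 2752 in epiblast, 9.17-fold lower in endoderm than in epiblast. Smad7, the inhibitory SMAD, read 618 in endoderm, 707 in mesoderm and 243 in epiblast, or 2.54-fold and 2.91-fold above epiblast, and its other probe set kept that order at 284, 400 and 92.9. Bambi, a decoy receptor, read 820 in endoderm, 1140 in mesoderm and 430 in epiblast. Nomo1, whose product takes part in a complex known to restrain Nodal signalling, read 1880 in endoderm, 1071 in mesoderm and 995 in epiblast, all within 2-fold. None of the 4 positive modulators differed by 2-fold.

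**Figure D3:**
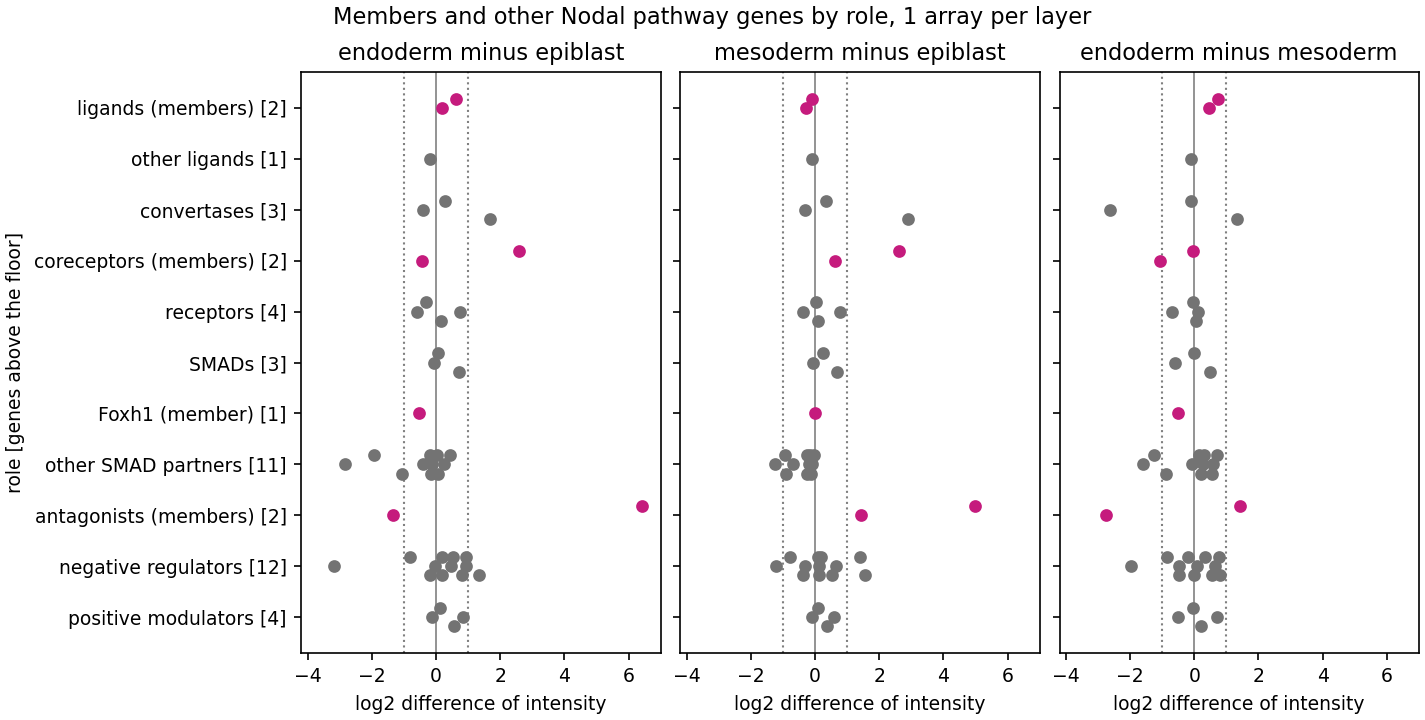
Log2 difference of intensity between each pair of layers for the genes above the floor, grouped by role with the number of genes in brackets, 1 array per layer and 1 point per gene. Members are in magenta and other pathway genes in grey, and dotted lines mark the 2-fold limit. Receptors and SMAD proteins lie between the dotted lines in all panels, and Cer1 lies furthest to the right in both comparisons with epiblast.

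Genes known to lie downstream of Nodal did not share a direction. Of 17 listed genes 13 were above the floor. In endoderm against epiblast 5 were at least 2-fold higher (Lhx1, Foxa2, Sox17, Hhex and Gata6) and 3 lower (Mixl1, Mesp1 and Fgf8), beside 12.5% and 4.01% of all genes. In mesoderm against epiblast 6 were higher (Lhx1, Mesp1, Sox17, Hhex, Gata6 and Bmp4) and 3 lower (Mixl1, Foxa2 and Otx2), beside 3.44% and 3.25%. The endoderm factor Sox17 read 4170 in endoderm, 116 in mesoderm and 51.3 in epiblast. Its excess in mesoderm is bounded at 1.44-fold only, since the epiblast value was below the floor, so its count as higher there rests on that value. Its other probe set was below the floor in both layers, at 70.1 in mesoderm and 57.1 in epiblast. Gata6, a GATA factor of endoderm and heart, read 644 in endoderm, 1079 in mesoderm and 63.9 in epiblast. The ligand gene Bmp4 read 113 in endoderm, 1552 in mesoderm and 184 in epiblast. Gsc and Wnt3 were below the floor in all layers, and the other 2 listed genes were not analysed here.

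The list for the anterior visceral endoderm, which is a source of Cer1 and Lefty1 in the embryo, was higher in endoderm in most of its other genes. Among these, Hhex, Lhx1, Foxa2, Otx2 and Gsc were also on the list of genes downstream of Nodal. Foxa2 was also an endoderm marker and Otx2 an epiblast marker, so the counts of these lists overlap. Of 10 genes besides the members 9 were above the floor, and in endoderm against epiblast 7 of them were higher and 0 lower (median log2 difference 2.48, beside 12.5% higher, 4.01% lower and a median of 0.05 over all genes). In mesoderm against epiblast 3 were higher (Hhex, Lhx1 and Amot) and 4 lower (Otx2, Hesx1, Foxa2 and Fzd5), with a median of 0.05, beside 3.44% higher, 3.25% lower and a median of -0.02 over all genes. The forkhead factor Foxa2 read 3247 in endoderm, 47.4 in mesoderm and 188 in epiblast. The homeobox factor Hesx1 read 1129 in endoderm, 98.7 in mesoderm and 435 in epiblast. The WNT receptor gene Fzd5 read 1403 in endoderm, 135 in mesoderm and 522 in epiblast. Mesoderm was lowest in these 3 genes and in 4 of the 9 in all, and the other 5 had the layer order of Cer1, endoderm over mesoderm over epiblast. For Sfrp5, one of the 5, the order is not settled. Its log2 steps of 0.12 (endoderm against mesoderm) and 0.05 (mesoderm against epiblast) were smaller than the spread between probe sets. Another of the 5 was the homeobox factor Hhex, at 571 in endoderm, 222 in mesoderm and 63.2 in epiblast. Among 4 node and left-right genes above the floor other than Nodal, Shh and Foxj1 were higher in endoderm against epiblast and 0 were lower, where the shares over all genes were again 12.5% and 4.01%. The signal gene Shh read 903 in endoderm, 122 in mesoderm and 130 in epiblast. The cilium factor Foxj1 read 530 in endoderm, 48.7 in mesoderm and 120 in epiblast.

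Genes with the pattern most like each member were found by the distance between their log2 values, centred on the mean of the 3 arrays and with dim values raised to the floor, over 12185 named genes. A distance over 3 values is a description, and genes were not tested for it. For Cer1 the nearest were Tfpi, which encodes a coagulation inhibitor (distance 0.90), the ligand gene Bmp2 (0.98) and the imprinted growth factor gene Igf2 (1.20), and 0 genes lay within 0.25. Tfpi read 3265 in endoderm, 1002 in mesoderm and 117 in epiblast. Bmp2 read 1727 in endoderm, 810 in mesoderm and 49.7 in epiblast.

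For Cfc1, 5 genes lay within 0.25, the nearest being Prdm6 (0.08), the laminin gene Lama1 (0.18) and Pkdcc (0.18). Prdm6 read 718 in endoderm, 691 in mesoderm and 115 in epiblast. For Lefty2, 7 genes lay within 0.25, and the nearest were Pdgfrb (0.10), a receptor gene of mesenchymal cells, the amino acid transporter gene Slc38a4 (0.10) and Adcy3 (0.13). Pdgfrb read 85.7 in endoderm, 623 in mesoderm and 238 in epiblast. For Tdgf1, 91 genes lay within 0.25, with Dact3, Lypd6 and Rbfox2 nearest.

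The members that were flatter by the probe set that stood for the gene had many genes as close. Within 0.25 lay 1855 genes for Nodal (nearest Cela1, Pak1ip1 and Dclre1a), 2228 for Gdf3 (nearest Lrrc23, Gpr135 and Vps33b) and 1285 for Foxh1 (nearest Tbp, Zbtb26 and Fam162a). For Gdf3 both mesoderm and epiblast were raised to the floor, so its count and neighbours depend on that step. The Foxh1 count and neighbours rest on its brightest probe set alone. Its dimmer probe sets passed the 2-fold limit in endoderm against mesoderm, at log2 differences of -1.10 and -1.24. Which genes lay near their pattern was not tested.

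**Figure D4:**
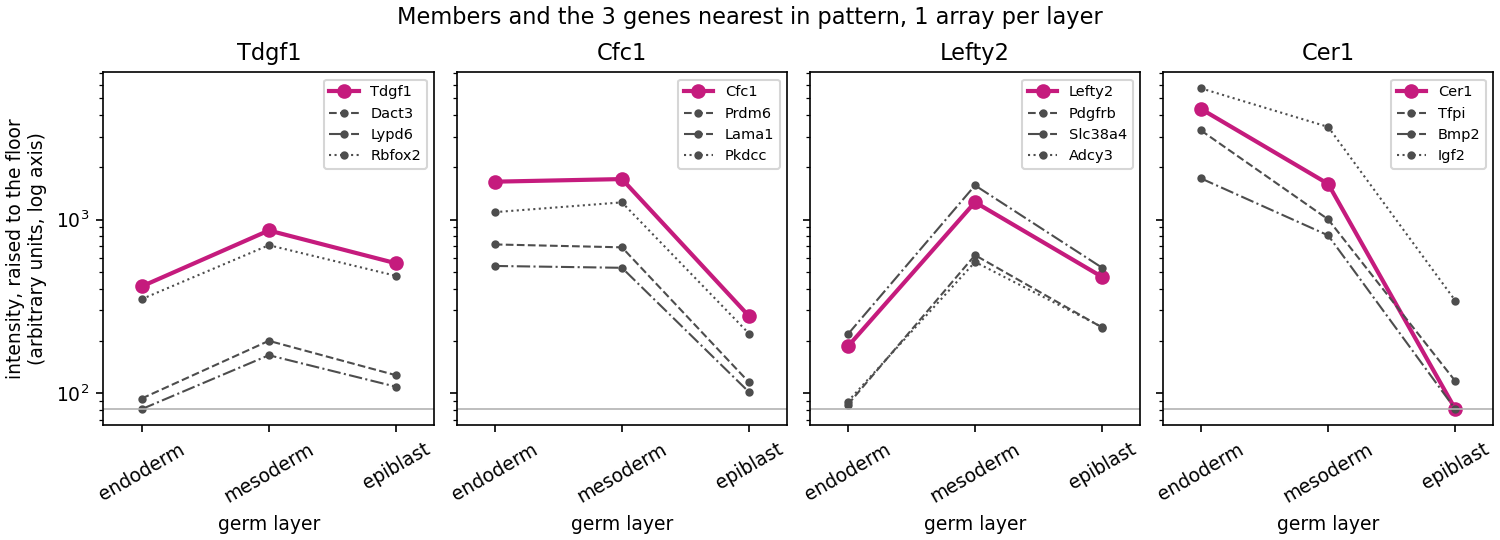
Intensity in endoderm, mesoderm and epiblast (log axis, 1 array per layer, values below the floor of 80.6 raised to it) for Tdgf1, Cfc1, Lefty2 and Cer1 in magenta and the 3 genes nearest to each in grey. Cfc1 and its neighbours are level in endoderm and mesoderm and low in epiblast, and Lefty2 and its neighbours peak in mesoderm.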

How the data were processed

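RNA of each layer was labelled from 100 ng and hybridised to 1 array. The authors deposited intensities, not log values. Their stated steps were RMA (background and normalization) and affy (expression values), and no source used here says which step returned a linear scale. Differences between dim probe sets depend on that step. The table held 45037 probe sets, of which 34945 had 1 gene symbol, 932 several and 9160 none in the platform annotation. Symbols were checked through the Entrez identifier in RefSeq, which matched 34741 probe sets and altered 0 symbols. A gene was represented by its probe set of highest mean log2. Log2 intensities were subtracted between layers, with the 2-fold limit and the floor as given above, and SAM, which the methods name, was not run as it needs replicates. The call rule was run on simulated data as a check of the code. How often it makes false calls with 1 array per layer was not tested. Alternatives were another floor or none, dim values raised to the floor, other choices of probe set, a 3-fold limit, and 3 other scalings (centring on 11 housekeeping genes, and quantile and cyclic loess normalization in limma 3.58.1). The named genes were all members, up to 4 genes of each pathway list with the widest range over the layers, and the 3 nearest genes of each member. Members and lists were chosen with earlier results of these data known. Python 3.11.15 and R 4.3.3 were used.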

Additional observations from a re-analysis of the deposited data

How the results depend on the processing

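The 9 member differences past the 2-fold limit kept their direction under every alternative. With a 3-fold limit the count of lower members was 0 for endoderm against epiblast (without Lefty2) and 1 for endoderm against mesoderm (without Tdgf1), and the count of higher members was 0 for endoderm against mesoderm (without Cer1) and 2 for mesoderm against epiblast (without Lefty2). Apart from the first 3 of these, 51 of 54 alternative counts were within 1.5 times the reported one. Quantile normalization lowered the median of all genes by 0.16 (log2) for endoderm against epiblast and by 0.15 for endoderm against mesoderm. Of 144 alternative log2 differences, 7 moved by more than the spread between probe sets. Those of over 1.5-fold all concerned Cer1. When dim values were set to the floor it had a log2 difference of 5.75 in endoderm against epiblast and 4.32 in mesoderm against epiblast, and by the mean of its probe sets the second was 4.26. No paired analysis was possible because each layer had 1 array. Signal near the floor limits Nodal, Gdf3 and Lefty1.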
